A study of Homo sapiens with 12 samples.

Results

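The genes described here are 36 members of the NRF2, thioredoxin, glutathione and heme redox system, measured by RNA-seq in HT-29 cells. HT-29 is a long-established line from a human colon adenocarcinoma. They were taken by symbol, from a list of names, out of a deposited table of 25528 rows, and all 36 were found and passed the expression filter in every comparison. This list was chosen with earlier results of these data known, so its counts are descriptions and not an independent test. There were 12 libraries in 4 groups of 3. In the open reading frame arm, HT-29 cells received lentivirus encoding GFP, the control, or CTNNB1, which encodes beta-catenin, and were collected 2 days later. In the hairpin arm, lentivirus carried the control hairpin shNT1 or a hairpin against APC, called shAPC, and RNA was taken 1 day after 2 µM doxycycline was added to induce it. All 4 groups share the mutant APC genotype of this 1 line, and APC belongs to the complex that marks beta-catenin for degradation. The labels do not name the APC alleles, the promoters of the constructs or clones, and they do not say whether the 3 libraries of a group came from separate cultures. The p-values below therefore measure only the spread between these libraries, which may be technical. Vector, doxycycline and collection time differ between the arms and cannot be told apart in a comparison across them.

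NRF2, the product of NFE2L2, is a transcription factor that is held in the cytoplasm by KEAP1 and degraded through a CUL3 ubiquitin ligase. When KEAP1 is modified by electrophiles or oxidants, NRF2 accumulates, pairs with small MAF proteins and binds antioxidant response elements near genes of detoxification. Its well known targets make glutathione (SLC7A11, GCLC, GCLM), reduce thioredoxin and peroxiredoxins (TXNRD1, SRXN1) and break down heme (HMOX1, BLVRB). Other well known targets supply NADPH (ME1, PGD) or belong to the non-oxidative part of the pentose phosphate pathway (TALDO1, TKT). Colon epithelium meets dietary and microbial electrophiles and expresses many of these enzymes strongly.

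Values are TPM, each transcript's length-adjusted share of its library, scaled to a fixed total. Read numbers cannot be recovered from TPM, and the depth per library is therefore not known. Fold changes are differences of group means of log2(TPM + 1), tested with limma, a linear model with variances shared across genes, over all genes with a mean of at least 1 TPM. A gene was called, and said to rise or fall, at a Benjamini-Hochberg adjusted p under 0.05 over all genes tested. Alternative fits changed 1 setting at a time, such as the scaling of the libraries by median ratios or quantiles, the filter or the variance trend. The number of rows above 0 ran from 14756 to 16186 per library, and libraries of 1 group correlated with each other at r between 0.991 and 0.997 across 11741 genes. APC itself fell in shAPC, from a mean of 16.4 TPM in shNT1 to 5.99 TPM (log2 fold change -1.32, limma adjusted p = 6.14e-06). CTNNB1 had a mean of 146 TPM under GFP and of 160.1 TPM with the CTNNB1 construct (log2 fold change 0.13, limma adjusted p = 0.0587), which was not called, and how reads of the construct were counted is not given in the sources used here. The WNT target AXIN2 rose in both arms, with log2 fold changes of 1.04 and 1.59. Among colon epithelial markers EPCAM averaged 1671 TPM in GFP, whereas CDX1, CDX2 and CDH17 stayed under 1 TPM in every group mean. The 4 leukocyte markers summed to 6492 to 8027 TPM per library, nearly all of it LYZ, and without LYZ and CD68 the sum was at most 0.0217 TPM, with CD3E at 0. The 4 fibroblast markers summed to at most 0.695 TPM per library and the 3 endothelial markers to at most 0.478 TPM. Of 4 erythroid markers, 3 were at 0 in every library.

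Per length, the iron store FTH1 was the most abundant of the 36 genes, with a mean of 5194 TPM over the 12 libraries, rank 18 among all 25528 rows. FTL followed at 2657 TPM, then PRDX1 at 1711 TPM, TXN at 1702 TPM and GSTP1 at 1312 TPM. The weakest were HMOX2 at 15.96 TPM, HMOX1 at 5.68 TPM and BLVRA at 2.08 TPM. The 36 genes together made up 2.18% of all TPM in GFP, 1.89% in CTNNB1, 1.72% in shNT1 and 1.65% in shAPC. Their summed level was 21830 ± 313 TPM (SD, n = 3) in GFP, 18877 ± 736 in CTNNB1, 17213 ± 374 in shNT1 and 16538 ± 110.3 in shAPC. The GFP libraries, at 21643 to 22192 TPM, lay above all others, and without the ferritin genes the order of the 4 group means was the same, from 12810.4 TPM in GFP to 9432 TPM in shAPC.

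**Figure D1:**
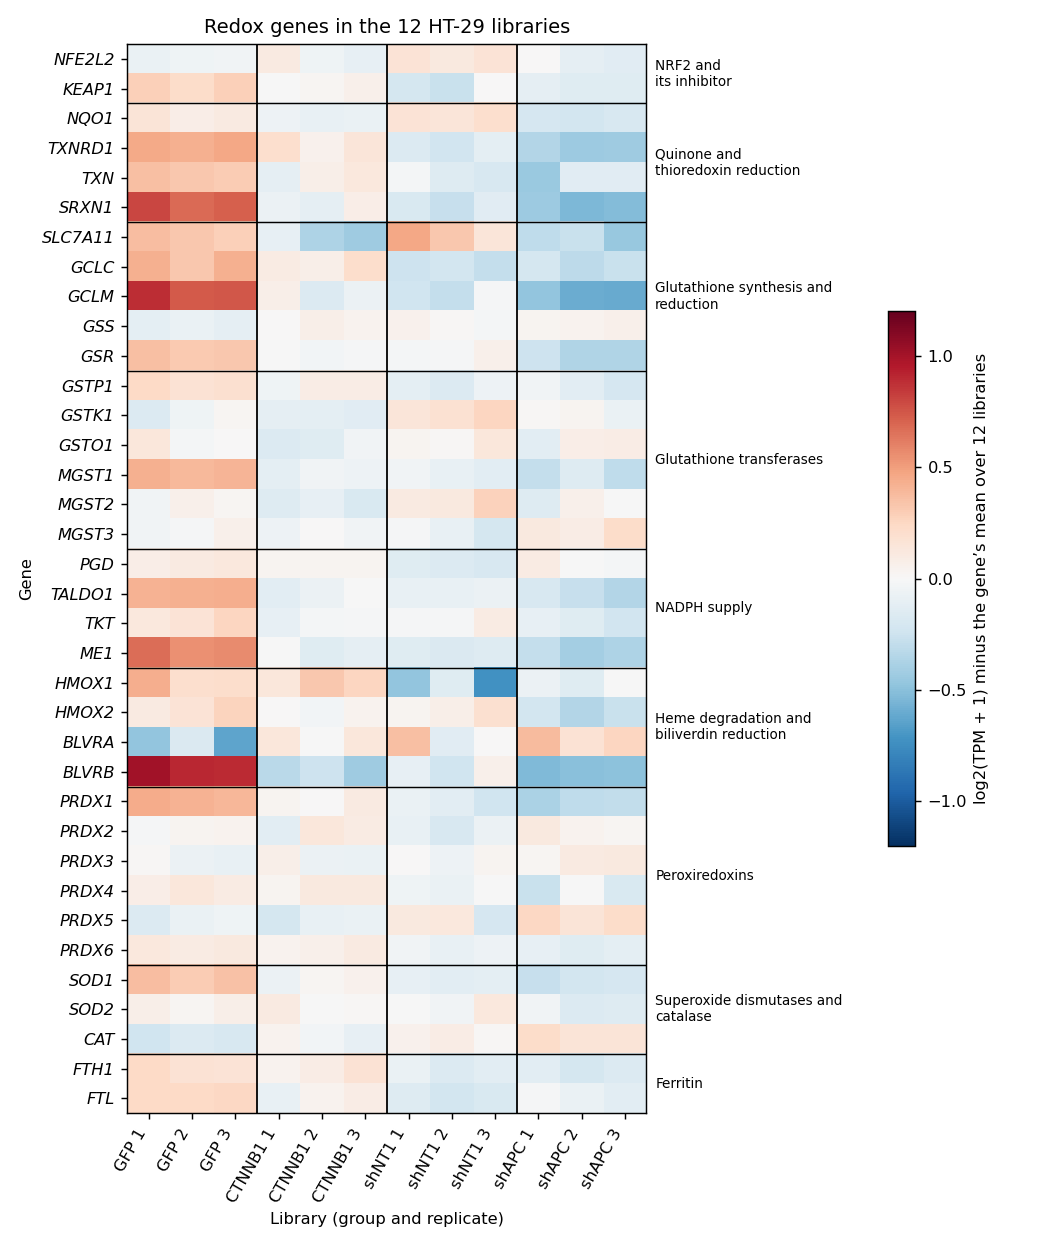
Each row is a gene and each column 1 of the 12 libraries, ordered by group and replicate. Colour shows log2(TPM + 1) minus the mean of that gene over the 12 libraries. The GFP columns are red for most rows from KEAP1 to BLVRB, with 16 of 36 genes above all 9 other libraries, and the shAPC columns are blue for most of the same rows.

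NRF2 paired with a small MAF protein binds the antioxidant response element, so the promoters of the members were searched for the letters TGACNNNGC on both strands, the core of that element. RefSeq promoters on GRCh38.p14, from 250 bases before to 50 after a start, were matched for 27 of the 36 members, with 37 windows. FTH1, GSR, GSS, HMOX1, MGST2, PRDX1, PRDX6, SLC7A11 and SOD1 were not matched. The core stood in 9 of these 37 windows (24.3%) and in 13.3% of all 35116 windows. It was found for PGD, GCLM, ME1, GSTO1, GSTP1, MGST1, TXNRD1 and KEAP1. The TCF motifs CTTTGAT and CTTTGAA were in 0 of the 37 windows, against 2.62% and 4.43% of all windows. A match is a description of letters and not a binding site. Windows of 29 bases around the core are shown for the members among these that were called in at least 1 arm, 1 match for each start. The matches of GSTO1, which was not called, and further matches at the same starts of ME1, KEAP1 and TXNRD1 are not shown. Each is read 5′ to 3′ on the strand of its gene, which is the minus strand for GCLM, KEAP1 and ME1 and the plus strand for the others. Capitals mark the core, which ends in TCA where it lies on the strand opposite to the gene.
GCLM: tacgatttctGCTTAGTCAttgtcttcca
KEAP1: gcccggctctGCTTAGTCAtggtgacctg
ME1: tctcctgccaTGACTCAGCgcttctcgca
GSTP1: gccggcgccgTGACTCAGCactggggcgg
TXNRD1: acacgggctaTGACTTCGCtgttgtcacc
TXNRD1, another start: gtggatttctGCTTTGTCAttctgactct
PGD: cctcgccgggGCAATGTCAtctaggtgct
MGST1: ggggacatcgTGACAAAGCaaattgtctg
The GCLM window is chr1:93909446-93909474 and its core lies 34 bases before the start. The KEAP1 window is chr19:10502784-10502812, with the core 31 bases before the start. ME1 has its core 137 bases before the start, in chr6:83431170-83431198, and GSTP1 66 bases before it, in chr11:67583736-67583764. The TXNRD1 windows are chr12:104215670-104215698 and chr12:104286920-104286948, with cores 99 and 102 bases before their starts. The PGD window is chr1:10398853-10398881, with the core 201 bases before the start. The MGST1 window is chr12:16347135-16347163, where the core begins at base 31 after the start. GCLM and KEAP1 share the core TGACTAAGC when it is read in 1 direction, and ME1 and GSTP1 share TGACTCAGC, which also contains TGACTCA, the element of AP-1 factors. The further matches of KEAP1 and ME1 at the same starts have the cores TGACACGGC and TGACGGTGC, so the shared cores depend on which match is shown.

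In CTNNB1 cells 19 of the 36 redox genes fell against GFP and 2 rose, BLVRA and CAT, while 15 were not called. Over all 11624 genes tested 23.5% were called, 7.16% lower and 16.3% higher, so the redox genes ran against the direction of most calls. The median log2 fold change of the 36 was -0.17, against 0.06 over all genes tested. For 22 of the 36 genes every CTNNB1 library was under every GFP library, against 13% of all genes, and for 3 of the 36 every one was above, against 30.2% of all. The largest falls were in BLVRB, GCLM, SRXN1, ME1 and SLC7A11, which came to between 41.0% and 64.8% of their GFP means. In CTNNB1 cells BLVRB, GCLM, SRXN1 and ME1 averaged 47.5, 44.1, 62.1 and 90.1 TPM, against 56.4, 40.4, 55.2 and 85.4 TPM in shNT1. SLC7A11 averaged 81.0 TPM in CTNNB1 cells, against 124.1 TPM in shNT1. No group of uninfected cells was included, so a raised level in GFP cells and a fall in CTNNB1 cells cannot be told apart. Fewer cells expressing a gene and less RNA per cell cannot be told apart in these bulk libraries. Of the 19 calls, 15 held in every alternative fit and without each single library. KEAP1 lost its call without GFP replicate 1 (log2 fold change -0.22, limma adjusted p = 0.0519), and BLVRA without GFP replicate 1 or GFP replicate 3 (limma adjusted p of 0.0674 and 0.0749). GSTP1, MGST2 and CAT lost theirs without any 1 of the GFP libraries (limma adjusted p of 0.0616 to 0.181) or without CTNNB1 replicate 2 (0.0611 to 0.105), and MGST2 also without CTNNB1 replicate 3 (limma adjusted p = 0.0876). GSTP1, MGST2 and CAT were also lost with no variance trend, and FTL with no filter (limma adjusted p = 0.0545). The count of rises was 0 without GFP replicate 1 or GFP replicate 3, and 1 without GFP replicate 2 or CTNNB1 replicate 2. TPM sums to the same total in every library, and under median-ratio scaling the share of rises among all calls fell from 69.5% to 49.4% (52.9% under quantile normalization), with 22 of the 36 called lower and 1 higher.

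In shAPC cells 14 of the 36 fell against shNT1 and 3 rose, PRDX2, MGST3 and PGD, while 19 were not called. Over all 11834 genes tested 22.1% were called, 14.9% lower and 7.24% higher. The median of the 36 was -0.12 on the log2 scale, against -0.04 over all genes tested. For 19 of the 36 every shAPC library was under every shNT1 library, against 26.4% of all genes, and for 7 every one was above, against 14.5% of all. SLC7A11 fell most, to 63.2% of its shNT1 mean, followed by BLVRB, HMOX2, GCLM and NQO1. The falls of NQO1, TXNRD1, SRXN1, SLC7A11, GCLM, GSR, HMOX2 and BLVRB held in every alternative fit and without each single library. The counts over the 36 were 9 without shAPC replicate 3, 10 without shNT1 replicate 1 and 11 without shNT1 replicate 2, against 17 with all libraries. NFE2L2 lost its call without shNT1 replicate 1, shAPC replicate 2 or shAPC replicate 3 (limma adjusted p of 0.0508, 0.0524 and 0.0579), and GSTK1 without shAPC replicate 3 (limma adjusted p = 0.0845). TALDO1 and ME1 lost theirs without shNT1 replicate 1 or 2 or shAPC replicate 2 or 3, TKT also without shNT1 replicate 3, and PRDX1 and PRDX2 without any library except shNT1 replicate 3 (limma adjusted p of 0.0543 to 0.166 in all). PGD lost its call without shNT1 replicate 1 or 2 or shAPC replicate 1, and MGST3 without shNT1 replicate 2 or 3 or shAPC replicate 1 or 3 (limma adjusted p of 0.0517 to 0.0989). With no variance trend GSTK1, TALDO1, TKT, ME1, PRDX1, PRDX2, MGST3 and PGD were not called. Under quantile normalization GSTK1, TALDO1, TKT and ME1 lost their calls (limma adjusted p of 0.0648 to 0.248). With no filter TALDO1, TKT, PRDX1, PRDX2 and MGST3 lost theirs (limma adjusted p of 0.062 to 0.113). Among all calls 32.8% were rises, and 47.6% under median-ratio scaling (49.4% under quantile normalization), with 13 and 11 of the 36 called lower.

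Both arms called 11 genes lower: NQO1, TXNRD1, SRXN1, SLC7A11, GCLM, GSR, TALDO1, TKT, ME1, BLVRB and PRDX1. Of the 11556 genes tested in both arms, 3.24% were called lower in both. These 11 were 11 of the 19 falls in the CTNNB1 arm and 11 of the 14 in the hairpin arm, and the arms share no library. Over all genes 374 were called lower in both, out of 832 falls in the CTNNB1 arm and 1758 in the hairpin arm. Shared falls were therefore common among all genes too, above all when counted from the CTNNB1 arm. TALDO1, TKT, ME1 and PRDX1 lost the hairpin call together without shNT1 replicate 1, shNT1 replicate 2 or shAPC replicate 3, which left 7 genes lower in both, and without shAPC replicate 2. The count was also 7 with no variance trend or with a replicate block, whereas leaving out a GFP or CTNNB1 library kept all 11. With no filter TALDO1, TKT and PRDX1 were no longer shared. Under quantile normalization TALDO1, TKT and ME1 dropped out, and under median-ratio scaling PRDX1 did, while HMOX2 joined under both. NQO1, TXNRD1, SRXN1, SLC7A11, GCLM, GSR and BLVRB were lower in both arms in each of these fits. KEAP1, TXN, GCLC, GSTP1, MGST1, MGST2, SOD1 and FTL were called lower in the CTNNB1 arm without a call in the hairpin arm, and NFE2L2, GSTK1 and HMOX2 the other way round. None of the 36 was called in opposite directions, against 1.03% of all genes. GSS, GSTO1, HMOX1, PRDX3, PRDX4, PRDX5, PRDX6, SOD2 and FTH1 were called in neither arm.

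**Figure D2:**
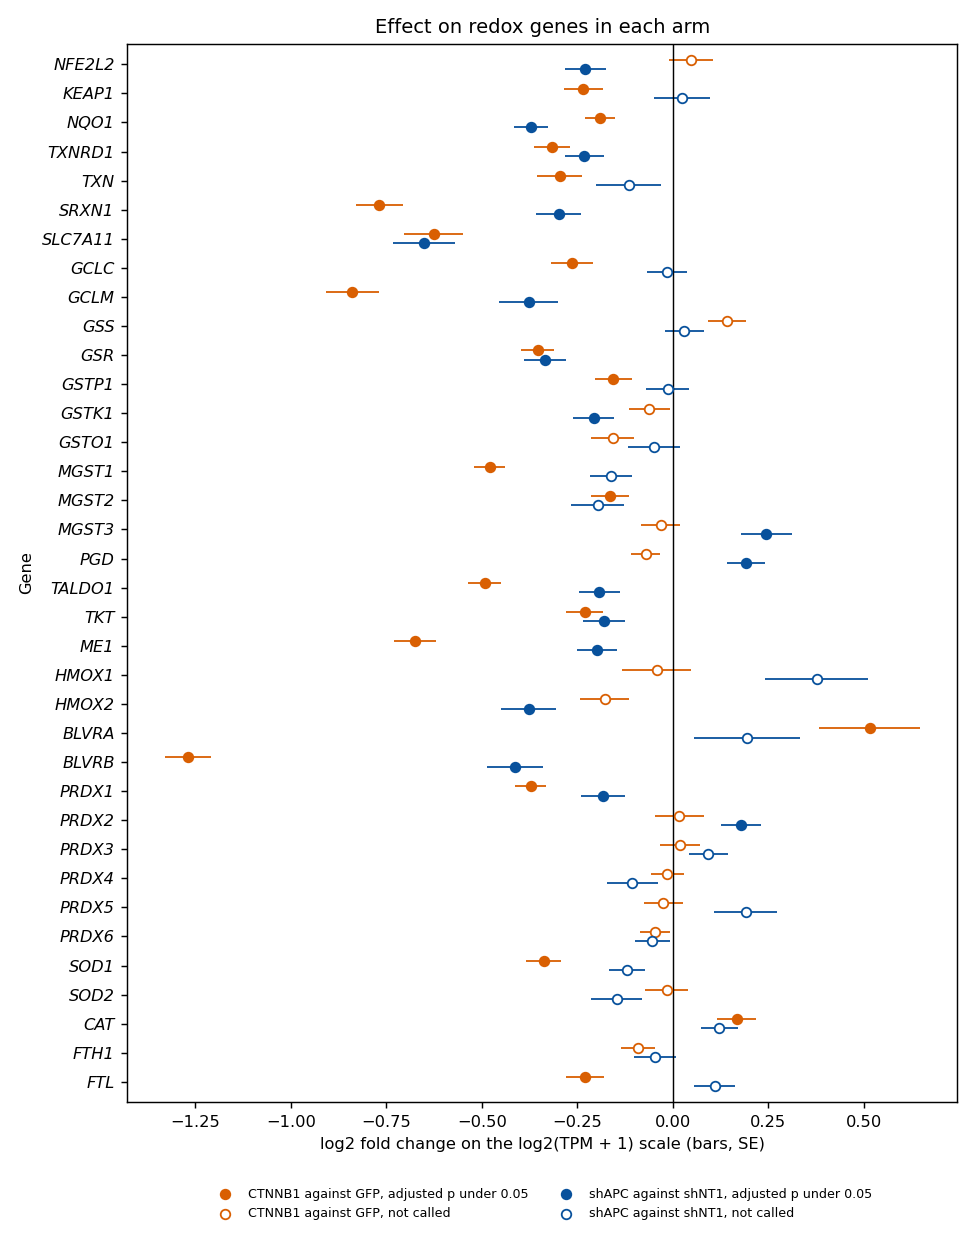
Points are the log2 fold changes of the 36 genes on the log2(TPM + 1) scale, orange for CTNNB1 against GFP and blue for shAPC against shNT1, with bars of 1 SE and filled points where the adjusted p was under 0.05. Filled points of both colours lie left of 0 for 11 genes, and the orange point of BLVRB is the furthest from 0 at -1.27.

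NFE2L2, which encodes NRF2 itself, measured 104, 106 and 106 TPM in GFP and 119, 106 and 103 TPM in CTNNB1, and these groups overlapped. It measured 123, 119.7 and 124 TPM in shNT1 and 110.4, 102 and 100.1 TPM in shAPC, every shAPC library being below every shNT1 library. The transcript was not called in the CTNNB1 arm (log2 fold change 0.05 with SE 0.06, limma adjusted p = 0.572) and fell by 14.7% in the shAPC arm (log2 fold change -0.23 with SE 0.05, limma adjusted p = 0.0138). The sign in the CTNNB1 arm turned under median-ratio scaling, to -0.015. KEAP1, the adaptor that presents NRF2 for degradation, measured 42.8, 40.9 and 42.8 TPM in GFP and 34.9, 35.7 and 36.6 TPM in CTNNB1. It measured 30.2, 28.95 and 35.1 TPM in shNT1 and 32.5, 31.6 and 31.5 TPM in shAPC. The CTNNB1 libraries were all below the GFP libraries (log2 fold change -0.23 with SE 0.05, limma adjusted p = 0.01), and the hairpin groups overlapped (log2 fold change 0.03 with SE 0.07, limma adjusted p = 0.835).

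**Figure D3:**
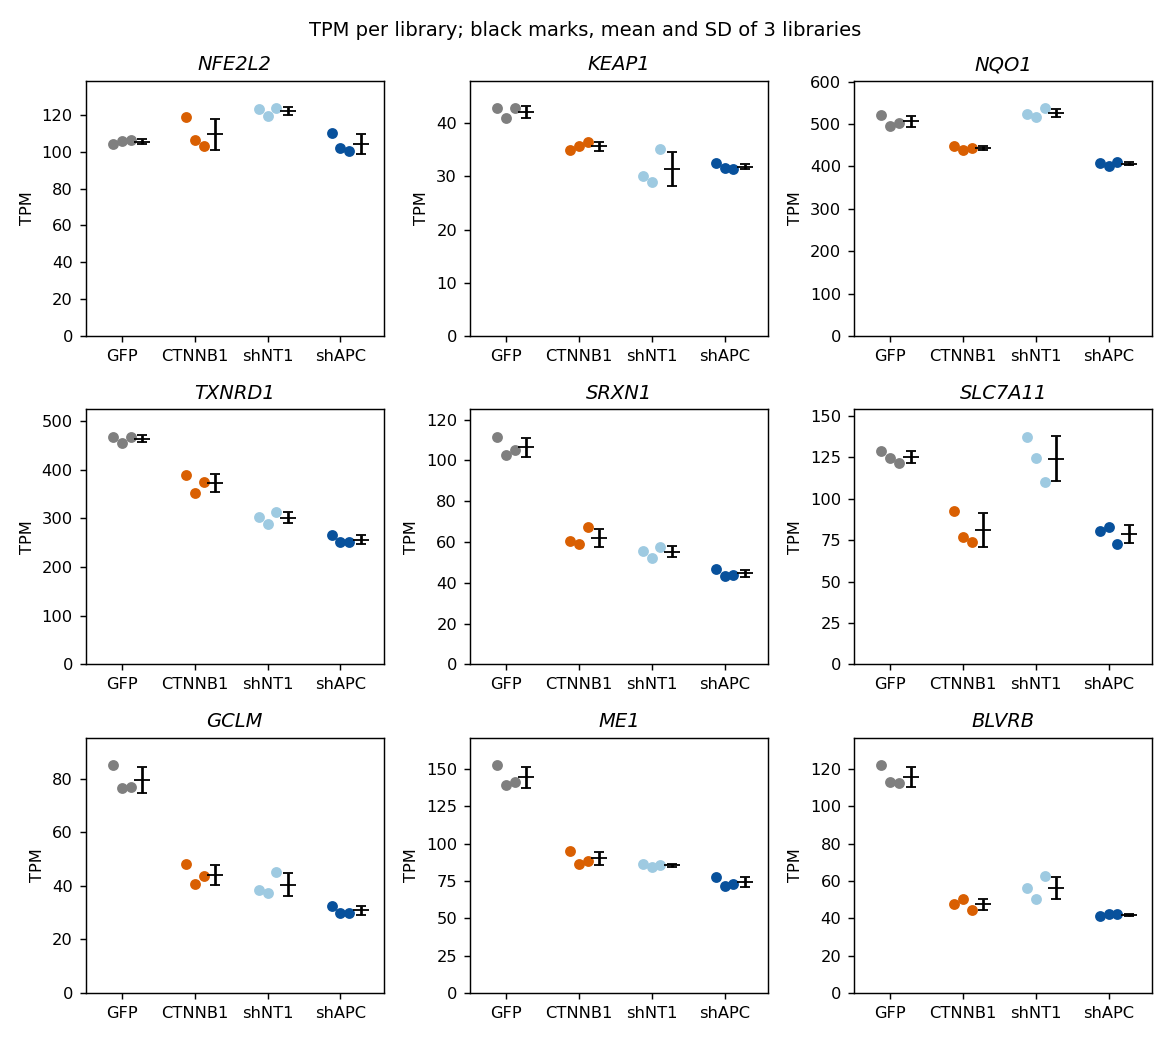
Each panel is a gene and each point the TPM of 1 library, with a black mark for the mean and SD of 3 libraries per group, on axes that start at 0. GFP stands above the other groups for KEAP1, TXNRD1, SRXN1, GCLM, ME1 and BLVRB, whereas SLC7A11 has GFP and shNT1 at about 124 to 125 TPM and the perturbed groups at 78.5 to 81.0 TPM.

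NQO1, a quinone reductase often used as a readout of NRF2, measured 521, 495 and 503 TPM in GFP and 448, 439 and 442 TPM in CTNNB1. It measured 523, 517 and 537 TPM in shNT1 and 407, 402 and 410.0 TPM in shAPC. Both perturbed groups lay below their own control without overlap, and the controls overlapped each other. The fall was 12.4% of the mean in the CTNNB1 arm (log2 fold change -0.19 with SE 0.04, limma adjusted p = 0.00803) and 22.7% in the shAPC arm (log2 fold change -0.37 with SE 0.05, limma adjusted p = 0.00041). TXNRD1 encodes the cytosolic reductase that passes electrons from NADPH to thioredoxin. It measured 468, 456 and 468 TPM in GFP and 390.4, 352 and 376 TPM in CTNNB1, and 302, 289 and 313 TPM in shNT1 and 267, 251 and 252 TPM in shAPC. No library of 1 group reached into the next, so the 4 groups formed a descending order from GFP to shAPC. TXNRD1 fell in both arms (log2 fold change -0.32 with SE 0.05, limma adjusted p = 0.00133 for CTNNB1; log2 fold change -0.23 with SE 0.05, limma adjusted p = 0.0107 for shAPC). TXN, thioredoxin itself, measured 2155, 2097 and 2072 TPM in GFP and 1557, 1767 and 1837 TPM in CTNNB1, and 1656, 1509 and 1471 TPM in shNT1 and 1234, 1532 and 1531 TPM in shAPC. It fell in the CTNNB1 arm (log2 fold change -0.30 with SE 0.06, limma adjusted p = 0.00634), while the hairpin groups overlapped (log2 fold change -0.12 with SE 0.09, limma adjusted p = 0.366). SRXN1, sulfiredoxin, repairs peroxiredoxins whose active cysteine has been over-oxidized. It measured 112, 102 and 105 TPM in GFP and 60.3, 58.95 and 67.1 TPM in CTNNB1, and 55.7, 52.2 and 57.7 TPM in shNT1 and 46.6, 43.4 and 43.9 TPM in shAPC. GFP libraries stood far above the other 9, and the shAPC libraries were the lowest. SRXN1 came to 58.4% of the control mean in CTNNB1 cells (log2 fold change -0.77 with SE 0.06, limma adjusted p = 4.2e-05) and to 80.9% in shAPC cells (log2 fold change -0.30 with SE 0.06, limma adjusted p = 0.00571).

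SLC7A11 encodes the cystine importer xCT, which supplies the cysteine for glutathione. It measured 129, 124 and 122 TPM in GFP and 92.5, 76.7 and 73.8 TPM in CTNNB1, and 137, 125 and 110.3 TPM in shNT1 and 80.3, 82.7 and 72.4 TPM in shAPC. Both controls were high and both perturbed groups low, without overlap within an arm. The fall was to 64.8% of the mean in CTNNB1 cells (log2 fold change -0.63 with SE 0.08, limma adjusted p = 0.000459) and to 63.2% in shAPC cells (log2 fold change -0.65 with SE 0.08, limma adjusted p = 0.000463). Its effects in the arms differed by 0.03 on the log2 scale (limma adjusted p = 0.914), and the sign of that difference turned under median-ratio scaling (-0.087) and quantile normalization (-0.059). GCLC, the catalytic subunit of glutamate-cysteine ligase, the rate-limiting step of glutathione synthesis, measured 106, 98.5 and 106 TPM in GFP and 84.4, 82.5 and 91.2 TPM in CTNNB1. It measured 66.1, 67.5 and 64.4 TPM in shNT1 and 67.8, 62.9 and 65.3 TPM in shAPC. Its fall was called in the CTNNB1 arm (log2 fold change -0.26 with SE 0.06, limma adjusted p = 0.00832), while the hairpin groups overlapped (log2 fold change -0.01 with SE 0.05, limma adjusted p = 0.874) and the sign there turned under both other scalings. GCLM, the modifier subunit of the same ligase, measured 84.98, 76.4 and 77.1 TPM in GFP and 47.9, 40.7 and 43.5 TPM in CTNNB1. It measured 38.5, 37.4 and 45.2 TPM in shNT1 and 32.6, 29.9 and 29.8 TPM in shAPC. GFP was well above the rest, and shAPC was below all 9 other libraries. GCLM came to 55.4% of its control mean in CTNNB1 cells (log2 fold change -0.84 with SE 0.07, limma adjusted p = 5.08e-05) and to 76.2% in shAPC cells (log2 fold change -0.38 with SE 0.08, limma adjusted p = 0.00724). GSR, glutathione reductase, which regenerates reduced glutathione with NADPH, measured 115, 111 and 112 TPM in GFP and 88.8, 86.9 and 88.1 TPM in CTNNB1, and 87.6, 88.5 and 93.3 TPM in shNT1 and 74.7, 69.05 and 69.3 TPM in shAPC. CTNNB1 and shNT1 libraries overlapped, with GFP above them and shAPC below. GSR fell by 21.9% and 20.9% of the mean (log2 fold change -0.35 with SE 0.04, limma adjusted p = 0.000433 for CTNNB1; log2 fold change -0.33 with SE 0.05, limma adjusted p = 0.00222 for shAPC). GSS, glutathione synthetase, which adds the final glycine, had group means of 38.9 to 43.1 TPM and was called in neither arm, although all 3 CTNNB1 libraries lay above GFP (log2 fold change 0.14 with SE 0.05, limma adjusted p = 0.0649).

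The glutathione transferases join glutathione to electrophiles, and of 6 measured 3 fell in the CTNNB1 arm (7.16% of all genes did) and 1 in the shAPC arm (14.9% of all genes). MGST1, a membrane-bound microsomal enzyme, measured 353, 342 and 347 TPM in GFP and 242, 254 and 251 TPM in CTNNB1, and 255, 246 and 239 TPM in shNT1 and 215, 235 and 213 TPM in shAPC. Both perturbed groups lay below their control without overlap, with a call in the CTNNB1 arm (log2 fold change -0.48 with SE 0.04, limma adjusted p = 5.83e-05; shAPC log2 fold change -0.16 with SE 0.06, limma adjusted p = 0.059). Its arm effects differed by -0.32 on the log2 scale (limma adjusted p = 0.00677). GSTP1, the abundant cytosolic pi-class enzyme, measured 1538, 1469 and 1487 TPM in GFP and 1256, 1392 and 1390.3 TPM in CTNNB1, and 1205, 1164 and 1250.2 TPM in shNT1 and 1264, 1192 and 1131 TPM in shAPC. GFP was above all other libraries, and the CTNNB1 fall was small (log2 fold change -0.16 with SE 0.05, limma adjusted p = 0.0448) and lost with no filter, no variance trend or quantile normalization (limma adjusted p of 0.111 to 0.263). MGST2, a microsomal enzyme that also makes leukotriene C4, measured 87.00, 93.7 and 91.6 TPM in GFP and 80.5, 83.6 and 78.8 TPM in CTNNB1, and 97.1, 97.4 and 109 TPM in shNT1 and 80.8, 93.9 and 89.6 TPM in shAPC. Each perturbed group was below its control, with a call in the CTNNB1 arm (log2 fold change -0.16 with SE 0.05, limma adjusted p = 0.041; shAPC log2 fold change -0.20 with SE 0.07, limma adjusted p = 0.0671). GSTK1, the kappa-class enzyme of mitochondria and peroxisomes, measured 152, 165 and 173 TPM in GFP and 158, 157 and 155 TPM in CTNNB1, and 189, 194 and 204 TPM in shNT1 and 172, 175 and 161 TPM in shAPC. The open reading frame groups overlapped, and shAPC lay below shNT1 (log2 fold change -0.21 with SE 0.05, limma adjusted p = 0.0213). MGST3, a microsomal enzyme with peroxidase activity, measured 44.4, 45.3 and 47.8 TPM in GFP and 44.1, 45.97 and 44.4 TPM in CTNNB1, and 45.5, 42.99 and 39.4 TPM in shNT1 and 49.7, 48.7 and 53.5 TPM in shAPC. It rose in shAPC (log2 fold change 0.25 with SE 0.07, limma adjusted p = 0.0261) and the GFP and CTNNB1 libraries overlapped. GSTO1, the omega-class enzyme, had group means of 193.5 to 218.7 TPM and was not called (limma adjusted p of 0.0694 and 0.643).

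NADPH drives both glutathione and thioredoxin reductases. ME1, cytosolic malic enzyme, whose promoter holds the core shown above, measured 153, 139 and 141 TPM in GFP and 95.3, 86.3 and 88.6 TPM in CTNNB1, and 86.3, 84.3 and 85.6 TPM in shNT1 and 77.99, 71.7 and 73.3 TPM in shAPC. The 3 GFP libraries were far above the other 9, and the CTNNB1 libraries lay just above shNT1. ME1 came to 62.4% of the GFP mean in CTNNB1 cells (log2 fold change -0.68 with SE 0.06, limma adjusted p = 5.07e-05) and to 87.1% of the shNT1 mean in shAPC cells (log2 fold change -0.20 with SE 0.05, limma adjusted p = 0.0231). TALDO1, transaldolase, a non-oxidative enzyme of the pentose phosphate pathway, measured 1055, 1061 and 1074 TPM in GFP and 723, 755 and 789.7 TPM in CTNNB1. It measured 743, 745 and 752 TPM in shNT1 and 692, 652 and 619 TPM in shAPC. GFP again stood alone at the top, and TALDO1 fell in both arms (log2 fold change -0.49 with SE 0.04, limma adjusted p = 6.27e-05 for CTNNB1; log2 fold change -0.19 with SE 0.05, limma adjusted p = 0.0284 for shAPC). TKT, transketolase of the same pathway, measured 378, 387 and 415 TPM in GFP and 323, 340.3 and 342 TPM in CTNNB1, and 342, 344 and 372 TPM in shNT1 and 325, 313 and 296 TPM in shAPC. It fell in both arms (log2 fold change -0.23 with SE 0.05, limma adjusted p = 0.00863 for CTNNB1; log2 fold change -0.18 with SE 0.06, limma adjusted p = 0.0421 for shAPC). The shAPC calls of ME1, TALDO1 and TKT were lost under quantile normalization, and those of TALDO1 and TKT also with no filter. PGD, 6-phosphogluconate dehydrogenase, makes NADPH in the oxidative branch. It measured 306, 312 and 316 TPM in GFP and 296, 297 and 296 TPM in CTNNB1, and 261, 258 and 253 TPM in shNT1 and 310.2, 288 and 285 TPM in shAPC. Here shNT1 was the low group, and PGD rose in shAPC (log2 fold change 0.19 with SE 0.05, limma adjusted p = 0.0237) without a call in CTNNB1 (log2 fold change -0.07 with SE 0.04, limma adjusted p = 0.216).

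Heme oxygenases open the heme ring to biliverdin, and biliverdin reductases turn biliverdin into bilirubin. BLVRB, biliverdin reductase B, which also acts as a flavin reductase (chr19:40447765-40465840 on GRCh38, minus strand), measured 122, 113 and 113 TPM in GFP and 47.9, 50.3 and 44.4 TPM in CTNNB1. It measured 56.02, 50.6 and 62.6 TPM in shNT1 and 41.4, 42.1 and 42.3 TPM in shAPC. The lowest GFP library, at 113 TPM, stood far above the highest library of the other groups, at 62.6 TPM. BLVRB came to 41.0% of the control mean in CTNNB1 cells, the largest fall of the 36 (log2 fold change -1.27 with SE 0.06, limma adjusted p = 2.08e-06), and to 74.4% in shAPC cells (log2 fold change -0.41 with SE 0.07, limma adjusted p = 0.00339). BLVRA, the other biliverdin reductase, measured 1.17, 1.68 and 0.94 TPM in GFP and 2.32, 2.01 and 2.31 TPM in CTNNB1, and 2.87, 1.75 and 2.02 TPM in shNT1 and 2.93, 2.40 and 2.61 TPM in shAPC. Its rise in CTNNB1 cells rested on means of 1.26 and 2.21 TPM (log2 fold change 0.52 with SE 0.13, limma adjusted p = 0.0203), was lost under quantile normalization (limma adjusted p = 0.0771), and the hairpin groups overlapped (log2 fold change 0.19 with SE 0.14, limma adjusted p = 0.346). HMOX1, the inducible heme oxygenase, measured 7.80, 6.52 and 6.55 TPM in GFP and 6.17, 7.17 and 6.83 TPM in CTNNB1, and 3.69, 4.89 and 2.95 TPM in shNT1 and 5.21, 4.90 and 5.52 TPM in shAPC. It was called in neither arm, though all shAPC libraries lay above shNT1 (log2 fold change -0.04 with SE 0.09, limma adjusted p = 0.767 for CTNNB1; log2 fold change 0.38 with SE 0.14, limma adjusted p = 0.0709 for shAPC). HMOX2, the constitutive heme oxygenase, measured 17.2, 17.9 and 19.3 TPM in GFP and 15.8, 15.4 and 16.3 TPM in CTNNB1, and 16.2, 16.6 and 18.2 TPM in shNT1 and 13.5, 12.2 and 12.9 TPM in shAPC. Both perturbed groups were below their control without overlap, with a call in shAPC (log2 fold change -0.38 with SE 0.07, limma adjusted p = 0.00464) and none in CTNNB1 (log2 fold change -0.18 with SE 0.06, limma adjusted p = 0.0723).

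Peroxiredoxins remove hydrogen peroxide, most of them with electrons from thioredoxin. PRDX1, the abundant cytosolic form, measured 2289, 2247 and 2213 TPM in GFP and 1718, 1688 and 1810.1 TPM in CTNNB1, and 1591, 1539 and 1426 TPM in shNT1 and 1287, 1361 and 1364 TPM in shAPC. The GFP libraries lay above all 9 others and shAPC below all 9 others. PRDX1 fell in CTNNB1 cells (log2 fold change -0.37 with SE 0.04, limma adjusted p = 0.000217) and in shAPC cells (log2 fold change -0.18 with SE 0.06, limma adjusted p = 0.0443), where the call was lost under median-ratio scaling (limma adjusted p = 0.224), with no filter (0.113) and with no variance trend (0.0869). PRDX2, also cytosolic, measured 263, 272 and 273 TPM in GFP and 244, 292 and 286 TPM in CTNNB1, and 251, 232 and 253 TPM in shNT1 and 289, 274 and 271 TPM in shAPC. It rose in shAPC (log2 fold change 0.18 with SE 0.05, limma adjusted p = 0.0381), and the open reading frame groups overlapped. PRDX3, PRDX4, PRDX5 and PRDX6 were called in neither arm, with log2 fold changes from -0.05 to 0.02 in the CTNNB1 arm and from -0.11 to 0.19 in the shAPC arm. SOD1, the cytosolic superoxide dismutase, measured 670.3, 637 and 659 TPM in GFP and 492, 528 and 537 TPM in CTNNB1, and 484, 474 and 478 TPM in shNT1 and 426, 444 and 451 TPM in shAPC. Both perturbed groups lay below their control, with a call in the CTNNB1 arm (log2 fold change -0.34 with SE 0.05, limma adjusted p = 0.000795; shAPC log2 fold change -0.12 with SE 0.05, limma adjusted p = 0.0926). SOD2, the mitochondrial enzyme, had group means of 20.9 to 23.8 TPM and no call. CAT, peroxisomal catalase, measured 107, 113 and 111 TPM in GFP and 130.5, 124 and 118 TPM in CTNNB1, and 132, 135 and 128 TPM in shNT1 and 148, 141 and 141 TPM in shAPC. It was lowest in GFP and higher in each perturbed group than in its control, with a call in the CTNNB1 arm (log2 fold change 0.17 with SE 0.05, limma adjusted p = 0.0408; shAPC log2 fold change 0.12 with SE 0.05, limma adjusted p = 0.0999). That call was lost with no filter, under median-ratio scaling or with no variance trend (limma adjusted p of 0.0598 to 0.114). Under median-ratio scaling and quantile normalization CAT was called higher in the shAPC arm (limma adjusted p of 0.0251 and 0.0112).

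Ferritin stores the iron that heme breakdown releases. FTL, its light chain, measured 3125, 3121 and 3126 TPM in GFP and 2479, 2714 and 2814 TPM in CTNNB1, and 2374, 2269 and 2331 TPM in shNT1 and 2622, 2495 and 2415 TPM in shAPC. The CTNNB1 libraries were below GFP (log2 fold change -0.23 with SE 0.05, limma adjusted p = 0.0091), and the shAPC libraries were above shNT1 without a call (log2 fold change 0.11 with SE 0.05, limma adjusted p = 0.165). The effects of the arms on FTL differed by -0.34 (limma adjusted p = 0.00712). FTH1, the heavy chain, had group means of 5896 TPM in GFP, 5540.0 TPM in CTNNB1, 4746 TPM in shNT1 and 4595 TPM in shAPC, with overlapping libraries in both arms (log2 fold change -0.09 with SE 0.04, limma adjusted p = 0.172 for CTNNB1; log2 fold change -0.05 with SE 0.05, limma adjusted p = 0.58 for shAPC).

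The difference between the arms, the CTNNB1 effect minus the shAPC effect on the log2 scale, was called negative for 11 of the 36 and positive for 2. Among all 11741 genes tested it was called for 16.1%, negative for 2.76% and positive for 13.3%, and the median over all genes was 0.11 (0.0041 under median-ratio scaling), against -0.13 for the 36. BLVRB differed most (log2 difference -0.86 with SE 0.10, limma adjusted p = 0.000139), followed by ME1 (log2 difference -0.48 with SE 0.07, limma adjusted p = 0.00103), SRXN1 (log2 difference -0.47 with SE 0.08, limma adjusted p = 0.00273) and GCLM (log2 difference -0.46 with SE 0.11, limma adjusted p = 0.0135). Of the 11 negative calls, SRXN1, GCLM, MGST1, PGD, TALDO1, ME1 and BLVRB held in every alternative fit and without each single library, and FTL was lost under quantile normalization (limma adjusted p = 0.0584). NFE2L2 and NQO1 were the positive calls (log2 difference 0.28 with SE 0.08, limma adjusted p = 0.0294; NQO1 log2 difference 0.18 with SE 0.05, limma adjusted p = 0.0377), and no positive call was left under median-ratio scaling. Each of the 12 libraries, when left out alone, ended at least 1 of the calls of GCLC, MGST3, SOD1, NFE2L2 and NQO1, with limma adjusted p up to 0.0887, 0.0995, 0.0826, 0.0775 and 0.11. The count of 13 went to 8 without GFP replicate 1, GFP replicate 3 or shAPC replicate 3. Among all calls 82.8% were positive, against 55% under median-ratio scaling, where 14 of the 36 were called negative.

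This contrast takes in both controls, which were compared directly, although GFP and shNT1 cells differ in vector, doxycycline and time. In GFP cells 20 of the 36 were called higher than in shNT1 cells and 4 lower, BLVRA, GSTK1, CAT and NFE2L2. Over all 11741 genes 29.6% were called, 8.81% higher and 20.8% lower (29.8% of calls were rises, and 48.6% under median-ratio scaling), and the median was 0.23 for the 36 against -0.06 for all genes. BLVRB (log2 fold change 1.03 with SE 0.07, limma adjusted p = 2.07e-07), GCLM (log2 fold change 0.96 with SE 0.08, limma adjusted p = 9.93e-07), SRXN1 (log2 fold change 0.93 with SE 0.06, limma adjusted p = 1.46e-07) and ME1 (log2 fold change 0.75 with SE 0.05, limma adjusted p = 2.71e-07) stood furthest apart. For SLC7A11 the controls were at 125 and 124.1 TPM (log2 fold change 0.02 with SE 0.09, limma adjusted p = 0.912). This comparison shares its GFP libraries with the CTNNB1 arm and its shNT1 libraries with the shAPC arm, so its values are not independent of either. TKT lost its call without GFP replicate 2 or 3 or shNT1 replicate 1 or 2 (limma adjusted p of 0.0728 to 0.15), and BLVRA without GFP replicate 1 or 3 or shNT1 replicate 1 (limma adjusted p of 0.0501 to 0.0742). Every GFP library was above every shNT1 library for 22 of the 36 (14.8% of all genes) and below for 6 (33.8% of all). The mean was highest in GFP for 24 of the 36 genes, against 21% of all genes, and lowest in shAPC for 22 genes, against 36.6% of all. All 3 GFP libraries lay above the 9 others for 16 genes (6.64% of all genes), and all 3 shAPC libraries below the 9 others for 14 (13.3% of all genes).

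Other NRF2 targets outside the 36 gave the following counts in the same fits. This list, like the further lists below, was chosen with earlier results of these data known, so its counts are no independent support. In the CTNNB1 arm 14 of 21 tested fell and 0 rose, against 7.16% and 16.3% of all genes, with a median log2 fold change of -0.32. The 14 include AKR1B10, AKR1C1, AKR1C2 and AKR1C3 of the aldo-keto reductase family, each counted singly, and whether they share reads was not tested. In the shAPC arm 5 of 20 tested fell and 1 rose, against 14.9% and 7.24% of all genes, with a median of -0.16. AKR1B10, an aldo-keto reductase with a near-identical paralog that could share reads, had the largest fall on the log2(TPM + 1) scale in both. It averaged 513.8 TPM in GFP against 215.4 in CTNNB1 (log2 fold change -1.25 with SE 0.06, limma adjusted p = 2.08e-06), and 262.3 TPM in shNT1 against 96.6 in shAPC (log2 fold change -1.43 with SE 0.06, limma adjusted p = 3.6e-07). PIR, an iron-binding nuclear protein, averaged 6.31 TPM in GFP and 2.20 TPM in CTNNB1 (log2 fold change -1.205 with SE 0.15, limma adjusted p = 0.00044), a lower share of the control mean (34.9%) than that of AKR1B10 (41.9%), and the weakly expressed CBR3 came to 27.8%. ABCC3, an exporter of glucuronide conjugates, stood at 130.7 TPM in shNT1 against 90.4 in shAPC (log2 fold change -0.53 with SE 0.07, limma adjusted p = 0.000417), and fell in CTNNB1 cells too (log2 fold change -0.18, limma adjusted p = 0.0235). IDH1, cytosolic isocitrate dehydrogenase, was the 1 rise, with 193.8 TPM in shNT1 and 222.5 TPM in shAPC (log2 fold change 0.20 with SE 0.05, limma adjusted p = 0.0289).

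**Figure D4:**
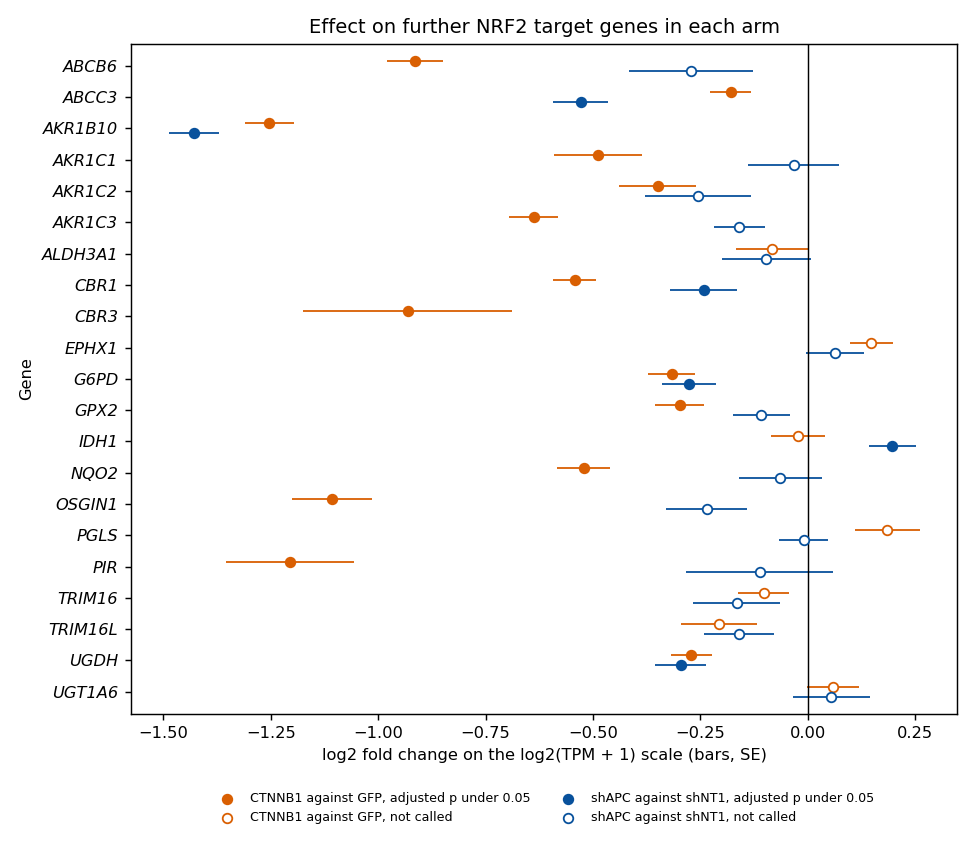
Points are log2 fold changes of 21 further NRF2 targets on the log2(TPM + 1) scale, orange for CTNNB1 against GFP and blue for shAPC against shNT1, with bars of 1 SE and filled points where the adjusted p was under 0.05. In orange 14 points are filled and all lie left of 0, while in blue 5 are filled on the left and 1, IDH1, on the right; CBR3 was too low to be tested in the shAPC arm.

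Of 16 tested regulators of NRF2, 3 fell and 2 rose in the CTNNB1 arm, and 2 fell and 1 rose in the shAPC arm. Over all genes 7.16% fell and 16.3% rose in the CTNNB1 arm, and 14.9% fell and 7.24% rose in the shAPC arm, so the rises in the first and both counts in the second were near the background. SQSTM1, the autophagy receptor p62 that binds KEAP1, measured 252, 239 and 249 TPM in GFP and 157, 172 and 166 TPM in CTNNB1, and 154, 156 and 154 TPM in shNT1 and 196, 179 and 171 TPM in shAPC. It fell in CTNNB1 cells (log2 fold change -0.58 with SE 0.05, limma adjusted p = 5.5e-05) and rose in shAPC cells (log2 fold change 0.23 with SE 0.06, limma adjusted p = 0.0183), and these effects differed (log2 difference -0.81 with SE 0.07, limma adjusted p = 2.75e-05). Of the small MAF genes, MAFK fell in both arms (log2 fold change -0.24 with SE 0.06, limma adjusted p = 0.0266 for CTNNB1; log2 fold change -0.27 with SE 0.07, limma adjusted p = 0.0172 for shAPC). MAFG fell in the CTNNB1 arm (log2 fold change -0.32 with SE 0.07, limma adjusted p = 0.00825) and was not called in the shAPC arm (log2 fold change -0.07, limma adjusted p = 0.461). MAFF was called in neither arm (log2 fold changes -0.09 and -0.16, limma adjusted p of 0.391 and 0.196). NFE2L3, a relative of NRF2, rose in CTNNB1 cells (log2 fold change 0.32 with SE 0.06, limma adjusted p = 0.00306), as did the kinase GSK3B (log2 fold change 0.20 with SE 0.06, limma adjusted p = 0.0356). PGAM5, a mitochondrial phosphatase that binds KEAP1, fell in shAPC cells (log2 fold change -0.45 with SE 0.05, limma adjusted p = 0.000176).

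Among other glutathione genes 5 of 17 tested fell and 0 rose in the CTNNB1 arm (7.16% and 16.3% of all genes), and 3 of 18 fell and 1 rose in the shAPC arm, where 14.9% and 7.24% of all genes did, so those counts were near the background. GGT1, which cleaves extracellular glutathione, and the transferase GSTA4 had the largest falls in CTNNB1 cells, with log2 fold changes of -0.47 and -0.42. In shAPC cells GGCT, which degrades gamma-glutamyl peptides, fell by 0.34 on the log2 scale, and the mitochondrial glutaredoxin GLRX2 fell by 0.24 there and by 0.30 in CTNNB1 cells. GLRX, the cytosolic glutaredoxin, rose there, with means of 10.4 TPM in shNT1 and 15.7 TPM in shAPC (log2 fold change 0.55 with SE 0.10, limma adjusted p = 0.00347). Other thioredoxin genes had 3 falls and 4 rises of 18 in the CTNNB1 arm, and 0 falls and 5 rises of 18 in the shAPC arm, against 7.16% and 16.3% of all genes in the first and 14.9% and 7.24% in the second. TXNIP, which binds and inhibits thioredoxin, measured 65.1, 66.99 and 65.6 TPM in GFP and 116, 104 and 98.8 TPM in CTNNB1, and 80.2, 81.2 and 86.6 TPM in shNT1 and 133, 117 and 124 TPM in shAPC. Both perturbed groups lay above their control, with log2 fold changes of 0.68 and 0.58 (limma adjusted p of 7.4e-05 and 0.00014). SESN1, a stress-induced sestrin, rose in both arms, with log2 fold changes of 1.09 and 1.06. The methionine sulfoxide reductase MSRB1 and the thioredoxin-like gene TXNL1 fell in CTNNB1 cells (log2 fold change -0.69 with SE 0.06, limma adjusted p = 4.43e-05; TXNL1 log2 fold change -0.48 with SE 0.05, limma adjusted p = 0.00016). In shAPC cells MSRB1 rose instead (log2 fold change 0.20 with SE 0.06, limma adjusted p = 0.0304) and TXNL1 was not called (log2 fold change 0.14, limma adjusted p = 0.0919). The effects of the arms differed for both (log2 differences -0.90 and -0.63, limma adjusted p of 1.17e-05 and 0.000159).

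Heme and iron genes had 3 falls and 3 rises of 25 tested in the CTNNB1 arm, and 5 falls and 0 rises of 25 in the shAPC arm. Over all genes 7.16% fell and 16.3% rose in the first and 14.9% fell and 7.24% rose in the second, so these counts were near the background. HEPH, hephaestin, the ferroxidase of intestinal iron export, measured 7.16, 8.25 and 8.62 TPM in GFP and 4.14, 3.72 and 4.52 TPM in CTNNB1, and 10.1, 10.9 and 10.6 TPM in shNT1 and 4.52, 4.41 and 4.54 TPM in shAPC. Both perturbed groups were low without overlap, with falls called in both arms (log2 fold change -0.81 with SE 0.09, limma adjusted p = 0.000292 for CTNNB1; log2 fold change -1.07 with SE 0.07, limma adjusted p = 1.37e-05 for shAPC). HFE, a regulator of iron uptake, fell in CTNNB1 cells (log2 fold change -0.38 with SE 0.07, limma adjusted p = 0.00597), whereas the heme-binding gene HEBP1 and UROS of heme synthesis rose there by 0.28 and 0.24 on the log2 scale. ABCB10, a mitochondrial transporter linked to heme synthesis, fell in shAPC cells (log2 fold change -0.50 with SE 0.06, limma adjusted p = 0.00026). CD68, listed among leukocyte markers, fell like the redox genes called lower in both arms. It averaged 26.96 TPM in GFP against 13.2 in CTNNB1, and 13.8 TPM in shNT1 against 7.51 in shAPC, and was called lower in both arms (log2 fold changes -0.98 and -0.81). LYZ of the same list went the other way. It was called higher in the CTNNB1 arm (log2 fold change 0.16, limma adjusted p = 0.0412) and not called in the shAPC arm (log2 fold change 0.13, limma adjusted p = 0.157). PTPRC averaged at most 0.0125 TPM in any group and CD3E was at 0 in every library, and the part of CD68 in the results was not tested.

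The authors' deposited table for CTNNB1 against GFP called 20 of the 36 lower and 0 higher at an adjusted p under 0.05, of which 18 were also called lower here. Called only here were GSTP1, BLVRA and CAT, and called only in the authors' deposited table were PGD and HMOX2. The authors' deposited table for the hairpins called 13 lower and 3 higher, with 15 calls in the same direction as here. MGST3 and PRDX1 were called only here and FTL only in the authors' deposited table, and no gene had opposite calls in the 2 sources.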

How the data were processed

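mRNA libraries of HT-29 cells (Kapa mRNA kit, per the labels' protocols) were aligned with STAR 2.7.3a to hg38 and compared with limma, per the submitters' processing notes. The quantification step and the annotation are not given in the sources used here. The authors deposited a table of TPM in which each of 12 library columns sums to 1e+06. The authors' deposited tables of each comparison hold log2 fold changes with p-values and adjusted p-values, and their log-odds score columns, per the file headers, were not used. Sample columns left unused numbered 0.

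Groups followed the sample labels. Each arm was fitted with limma 3.58.1 (R 4.3.3) on log2(TPM + 1), over all genes with a mean of at least 1 TPM in the fitted libraries, with a variance trend. Genes were called at a Benjamini-Hochberg adjusted p under 0.05 over all genes tested. Because 1 is added, fold changes of weak genes are understated. The difference between arms and GFP against shNT1 came from a fit of all 12 libraries. The fits were also run on simulated libraries with 1 fixed spread and larger changes than most seen here. That run therefore does not show how well small changes are called in these data. The members and further lists were chosen with earlier results of these data known. Values per library are given for members called in at least 1 arm without overlap and for 13 core genes, and each further list names at most the 2 largest rises and 2 largest falls per arm. MAFF, which was not called, is named in addition. Library values of SQSTM1, TXNIP and HEPH among these, and CD68, were shown after values had been seen. Other settings tried were no filter, a mean of at least 5 TPM, 0.1 in place of the added 1, median-ratio scaling, quantile normalization, no variance trend, a replicate block, 1 fit of all groups, calls at 0.01, and each library left out in turn. Gene positions came from GENCODE v29 on GRCh38, and promoters from RefSeq on GRCh38.p14. The gene identifier that the authors deposited for HMOX2 was not found in GENCODE v29, and whether its TPM row holds all its reads was not tested.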

Additional observations from a re-analysis of the deposited data

Results flagged for a closer look

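The effects of the arms differed in a direct test (limma, adjusted p under 0.05 over all genes) for 13 of the 36 redox genes. Over all genes tested a difference was called for 16.1%. The differences, the CTNNB1 effect minus the shAPC effect on the log2 scale, were -0.857 for BLVRB, -0.477 for ME1, -0.469 for SRXN1, -0.462 for GCLM and -0.34 for FTL. They were -0.317 for MGST1, -0.301 for TALDO1, -0.277 for MGST3, -0.263 for PGD, -0.25 for GCLC and -0.217 for SOD1. NQO1 (0.18) and NFE2L2 (0.278) had positive differences. Over all genes 2.76% were called negative and 13.3% positive. Under median-ratio scaling neither NQO1 nor NFE2L2 was called (0.067 and 0.17, limma adjusted p of 0.451 and 0.0799). Of the 13 calls, 7 held in every alternative fit and without each single library, all of them negative. Vector, doxycycline and collection time differ between the arms and cannot be told apart from the perturbation in these values.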

How the results depend on the processing

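Fold changes of 36 genes in 4 comparisons were refitted under up to 8 other settings (7 for the 2 comparisons that use all libraries) and without each library. No call changed its direction in any of them. The TPM table gives no depth, so how far depth limits weakly expressed genes such as BLVRA and HMOX1 is unknown, and the causes of lost calls were not tested. Calls are given as either direction, then lower, then higher. In the CTNNB1 arm (21, 19 and 2) the number of rises was 1 at a mean TPM of at least 5, with no variance trend and under quantile normalization or median-ratio scaling, and 0 at an adjusted p under 0.01. Without each library in turn the 3 numbers ran from 16 to 22, 16 to 19 and 0 to 3. In the shAPC arm (17, 14 and 3) they were 9, 9 and 0 with no variance trend and 7, 7 and 0 at an adjusted p under 0.01, and with no filter there was 1 rise. Without each library they ran from 9 to 16, 8 to 14 and 0 to 2. The difference between arms (13, 11 and 2) gave 8, 8 and 0 with no variance trend and 6, 6 and 0 at an adjusted p under 0.01. Its positive calls numbered 0 with median-ratio scaling and 1 with quantile normalization. Without each library it ran from 8 to 14, 8 to 12 and 0 to 2. GFP against shNT1 (24, 20 and 4) had 2 lower at an adjusted p under 0.01 and ran from 22 to 26, 19 to 21 and 3 to 5 without each library. All other counts were within 1.5 times the main ones. Replicate numbers are shared across groups, but same-numbered libraries deviated together only in part, with correlations of 0.22, 0.07 and 0.11 in the CTNNB1 arm and -0.15, -0.0064 and -0.21 in the shAPC arm, so the numbers were not taken to pair libraries. With the number as a replicate block, the calls were 21, 19 and 2 in the CTNNB1 arm, 9, 9 and 0 in the shAPC arm and 8, 8 and 0 for the difference between arms. The sign of 26 refitted fold changes turned, none of a called gene. Under median-ratio scaling these were, for the CTNNB1 arm NFE2L2 -0.015, PRDX2 -0.046 and PRDX3 -0.045, for the shAPC arm GCLC 0.037, GSTP1 0.038, GSTO1 0.0024 and FTH1 0.0047. They were, for the difference between arms SLC7A11 -0.087, MGST2 -0.078, PRDX4 -0.020, PRDX6 -0.11 and CAT -0.067, for GFP against shNT1 NQO1 0.0096, GSTO1 0.045 and PRDX3 0.026. Under quantile normalization these were, for the shAPC arm GCLC 0.066, GSTP1 0.031, GSTO1 0.031 and PRDX6 0.0060, for the difference between arms SLC7A11 -0.059, GSS -0.0038, MGST2 -0.055, PRDX6 -0.028, CAT -0.038 and FTH1 0.046. They were, for GFP against shNT1 SLC7A11 -0.0083. Without single libraries the sign turned in 18 results, none of them called. In the CTNNB1 arm they were HMOX1 (-0.083 to 0.033), PRDX4 (-0.029 to 0.016), PRDX3 (-0.029 to 0.051), NFE2L2 (-0.011 to 0.091), PRDX5 (-0.056 to 0.019), PRDX2 (-0.030 to 0.099) and SOD2 (-0.050 to 0.0063). In the shAPC arm they were KEAP1 (-0.029 to 0.11), GCLC (-0.041 to 0.013), GSTP1 (-0.054 to 0.026) and GSTO1 (-0.087 to 0.023). In the difference between arms they were SLC7A11 (-0.073 to 0.11), PRDX6 (-0.010 to 0.020), MGST2 (-0.027 to 0.081) and GSR (-0.046 to 0.018). In the comparison of GFP against shNT1 they were SLC7A11 (-0.066 to 0.091), GSTO1 (-0.068 to 0.020) and SOD2 (-0.0061 to 0.076).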
